A study of Mus musculus with 12 samples.

Results

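Cytochrome P450 enzymes of families 1 to 4, other than the Cyp2c subfamily, were followed in the liver of mice given a short hairpin RNA against Grb14. The members were all genes whose symbol names a P450 of these 4 families outside Cyp2c and whose probe set is paired by the platform annotation with that symbol alone. This gave 56 genes of 19938 measured, in 19 subfamilies, including 3 that RefSeq lists as transcribed pseudogenes (Cyp2d13, Cyp2d37-ps and Cyp4f41-ps). Each member had 1 probe set. A further 6 probe sets that carry several symbols with a P450 of these families among them were left out of the member counts, so Cyp2a4, Cyp2a5, Cyp3a41a, Cyp3a41b, Cyp3a59, Cyp4a32 and Cyp4v3 are not members.

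The 12 livers came from C57Bl/6J mice, an inbred strain, injected by vein at 10 weeks of age with a recombinant adenovirus. In 6 mice the virus carried a scrambled hairpin (sh scramble), and in 6 it carried the hairpin against Grb14 (sh Grb14). Fed animals were studied 7 days later, with 1 array per mouse. All mice of both groups thus carried adenovirus, the hairpin acts only in cells the virus has entered, and neither the sex of the mice nor any batch is given in the labels. Grb14 encodes an adapter that binds the insulin receptor and restrains its signalling. In sh scramble livers its log2 level ran from 10.08 to 10.25 and in sh Grb14 livers from 8.02 to 8.44, a change of −1.91 (SE 0.059; limma adjusted p = 7.99e-14). Array medians lay between 7.06 and 7.17, and lower quartiles between 5.69 and 5.83. The mean log2 level over 9 measured genes of hepatocyte secreted proteins was 13.43 to 13.52 in sh scramble and 13.14 to 13.27 in sh Grb14 livers (highest value of any probe set 14.24), so every array carried a strong hepatocyte signal.

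P450 enzymes are heme proteins of the endoplasmic reticulum that insert an oxygen atom into drugs, toxins, steroids and fatty acids, drawing electrons from a reductase and from cytochrome b5. Families 1 to 3 are best known for handling foreign compounds and steroids, and family 4 for hydroxylating the end of fatty acids and of lipid mediators such as leukotrienes. In the liver, hepatocytes hold most of these enzymes, many of them close to the central vein, and their genes are switched by sensor receptors: AHR acts on Cyp1 genes, CAR and PXR on Cyp2b and Cyp3a genes, and PPAR-alpha on Cyp4a genes. Several mouse members differ between the sexes under the control of growth hormone.

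In sh Grb14 livers most of these genes were lower, and a few were clearly higher. By limma with Benjamini-Hochberg adjustment over all 19938 genes, 46 of 56 members (82.1%) passed at an adjusted p under 0.05, against 65.3% of all genes. Of the members, 38 (67.9%) were lower, against 39.5% of all genes, and 8 (14.3%) were higher, against 25.8% of all genes. The lower and upper ends were Cyp4f14, with a change of −2.06, and Cyp4f18, with a change of 2.28 (log2, sh Grb14 minus sh scramble). The members' median change was −0.30, beside −0.10 for all genes. At least 2-fold lower were 15 members (26.8%), against 2.65% of all genes, and at least 2-fold higher were 5 (8.93%), against 6.37% of all genes. In either direction 20 members (35.7%) changed at least 2-fold, against 9.03% of all genes. The 2 groups of mice did not overlap for 39 members (69.6%), against 41.2% of all genes. Of these 39, 32 were lower (background 20.8%) and 7 higher (background 20.3%). Because a liver sample pools cells, fewer cells of a type and less RNA per cell cannot be told apart.

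The members with bright probe sets were nearly all lower. Among the 1994 genes with the highest mean level (the top 10%) 20 were members, and 19 of them (95%) passed, against 83.9% of those genes. Of the 20, 18 were lower (90%), against 52.4%, and 1 was higher, against 31.5%. At least 2-fold lower were 8 (40%), against 8.63%. The one that was higher was Cyp4a14, and the one that did not pass was Cyp4a31. The mean log2 level of the 20 ran from 12.37 to 12.46 in sh scramble livers and from 11.44 to 11.83 in sh Grb14 livers, with no overlap. The mean of all 1994 bright genes did not overlap either, at 11.42 to 11.46 and 11.23 to 11.33, so the lack of overlap is not particular to the members. At the other end, 9 members had a mean level below 5.73, the middle of the arrays' lower quartiles. No detection call was made, so values near that level can understate a change.

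**Figure D1:**
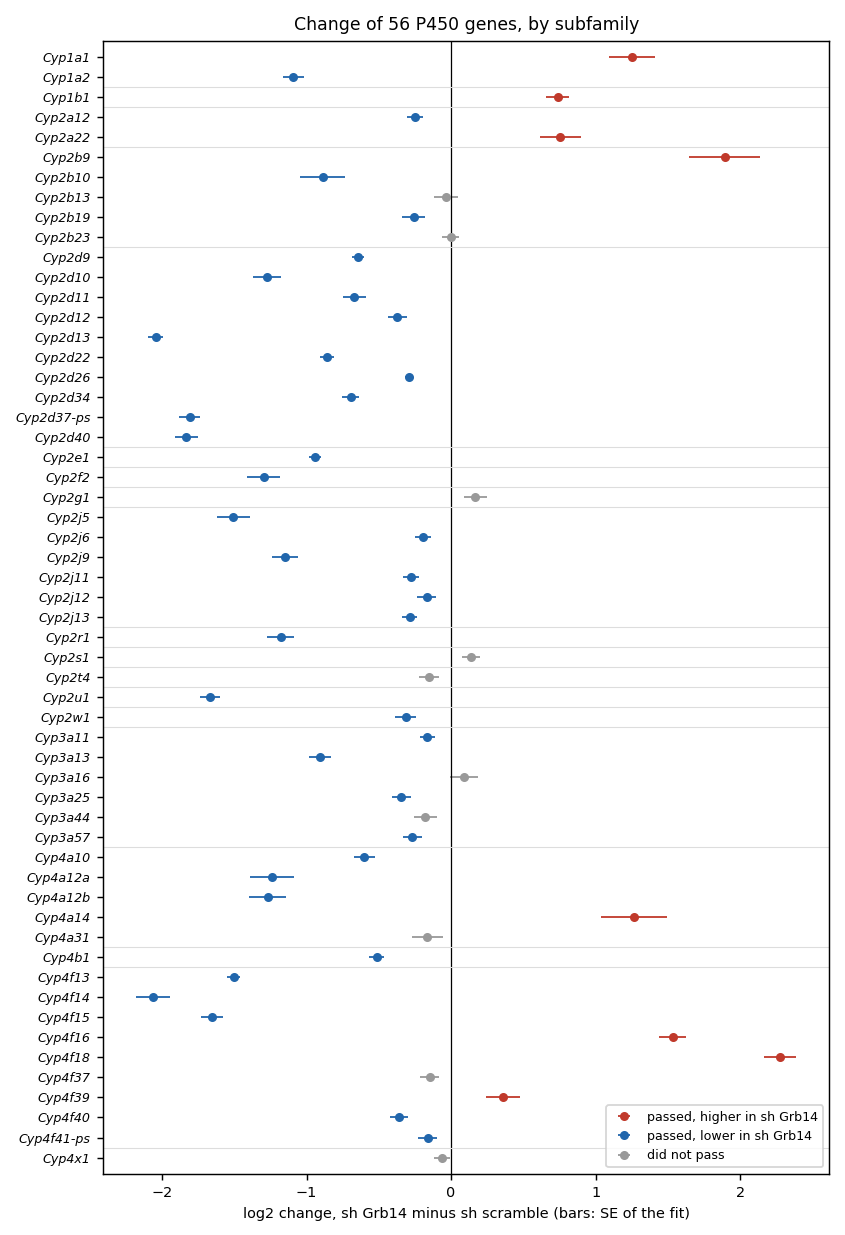
Log2 change (sh Grb14 minus sh scramble, x axis) of each of the 56 P450 genes, grouped by subfamily from top to bottom, as points with the SE of the fit, red for genes that passed and were higher, blue for genes that passed and were lower, grey for genes that did not pass. All 10 Cyp2d genes and all 6 Cyp2j genes lie to the left of 0, while Cyp1a, Cyp2b, Cyp4a and Cyp4f hold genes on both sides.

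**Figure D2:**
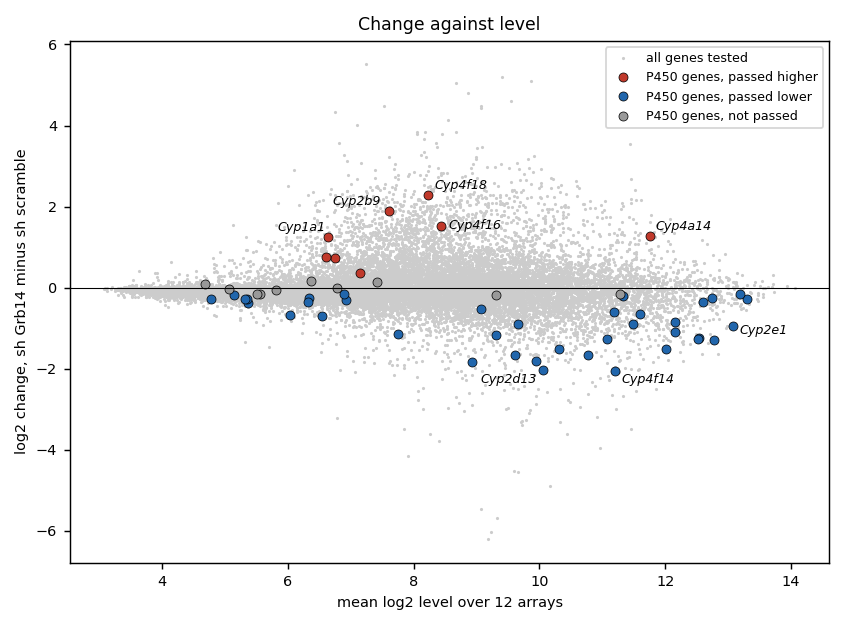
Log2 change (y axis) against mean log2 level over 12 arrays (x axis) for all 19938 genes (grey dots) and the 56 P450 genes (large points, coloured by call). Among the P450 genes at the bright end only Cyp4a14 lies well above 0, and the others that were higher sit at lower levels.

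In Cyp1a, Cyp2b and Cyp4f, genes passed in opposite directions, and their upstream sequences are shown here so that the opposed genes can be set side by side. RefSeq promoters (GRCm38.p6) were at hand for 42 of the 56 members, with none for the Cyp4a genes. The 250 bases before the start site of 7 genes follow, 5′ to 3′ on the gene's own strand. Capitals mark GCGTG, the core of the AHR binding site (CACGC on the other strand), and AGGTCA, the half-site of nuclear receptors.
Cyp1a1 (chr9:57697363-57697612, plus strand): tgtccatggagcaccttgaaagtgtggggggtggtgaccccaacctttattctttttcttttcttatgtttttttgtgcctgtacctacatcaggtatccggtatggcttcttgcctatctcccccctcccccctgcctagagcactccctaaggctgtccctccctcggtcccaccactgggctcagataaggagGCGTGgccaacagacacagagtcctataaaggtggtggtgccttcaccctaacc
Cyp1a2 (chr9:57683656-57683905, minus strand): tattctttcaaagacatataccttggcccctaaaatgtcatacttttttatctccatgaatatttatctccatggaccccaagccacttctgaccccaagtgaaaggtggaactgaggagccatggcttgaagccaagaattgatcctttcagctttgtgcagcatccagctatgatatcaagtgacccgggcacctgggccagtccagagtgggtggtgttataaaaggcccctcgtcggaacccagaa
Cyp2b9 (chr7:26173159-26173408, plus strand): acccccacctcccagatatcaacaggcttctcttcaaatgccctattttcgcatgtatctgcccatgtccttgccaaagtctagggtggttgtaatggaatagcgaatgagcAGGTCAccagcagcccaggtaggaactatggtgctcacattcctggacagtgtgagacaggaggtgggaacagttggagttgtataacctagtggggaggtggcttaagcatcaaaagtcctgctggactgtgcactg
Cyp2b10 (chr7:25897408-25897657, plus strand): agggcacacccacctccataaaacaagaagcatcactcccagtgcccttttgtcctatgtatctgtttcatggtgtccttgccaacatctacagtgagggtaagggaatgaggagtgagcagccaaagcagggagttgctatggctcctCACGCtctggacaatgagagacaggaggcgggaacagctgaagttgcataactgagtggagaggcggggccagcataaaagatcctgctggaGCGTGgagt
Cyp4f16 (chr17:32536307-32536556, plus strand): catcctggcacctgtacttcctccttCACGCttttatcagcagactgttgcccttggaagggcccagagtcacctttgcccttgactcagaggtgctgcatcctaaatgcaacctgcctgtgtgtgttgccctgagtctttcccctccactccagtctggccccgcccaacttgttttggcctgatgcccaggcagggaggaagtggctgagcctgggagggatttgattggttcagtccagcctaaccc
Cyp4f15 (chr17:32685409-32685658, plus strand): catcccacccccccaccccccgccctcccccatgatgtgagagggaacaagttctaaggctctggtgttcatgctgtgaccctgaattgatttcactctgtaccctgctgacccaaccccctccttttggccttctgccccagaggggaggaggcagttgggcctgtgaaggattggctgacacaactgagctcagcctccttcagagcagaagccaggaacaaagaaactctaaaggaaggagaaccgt
Cyp4f18 (chr8:72009627-72009876, minus strand): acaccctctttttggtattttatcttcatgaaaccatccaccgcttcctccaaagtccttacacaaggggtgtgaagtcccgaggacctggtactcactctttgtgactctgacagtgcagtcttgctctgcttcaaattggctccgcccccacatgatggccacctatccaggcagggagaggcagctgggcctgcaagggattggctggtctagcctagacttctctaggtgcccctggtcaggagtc

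Cyp1a1, which was higher in sh Grb14 livers, has 1 GCGTG, beginning 54 bases before its start, whereas Cyp1a2, which was lower, has none in this window. Cyp2b10, which was lower, has 2, beginning 101 and 9 bases before the start. Cyp2b9, which was higher, has none and holds 1 AGGTCA, beginning 138 bases before the start. The upstream windows of Cyp2b9 and Cyp2b10 were identical at 70% of aligned columns (182 of 260, gaps counted), against 43.4% for Cyp1a1 and Cyp1a2. Cyp4f16 has 1 GCGTG, beginning 224 bases before the start, and neither Cyp4f15 nor Cyp4f18 has either motif here.

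Over all members with a promoter the same letters were counted on both strands, and a gene was counted once if any of its listed starts held a match. GCGTG stood in 10 of 42 members (23.8%), against 30.9% of all 27025 genes with a promoter: in 4 of 7 members that were higher (Cyp1a1, Cyp1b1, Cyp4f16 and Cyp4f39), 6 of 28 that were lower and 0 of 7 that did not pass. AGGTCA stood in 11 of 42 (26.2%), against 15.8% of all genes: in 1 of 7 that were higher, 6 of 28 that were lower and 4 of 7 that did not pass. TTCNNNGAA, the spaced palindrome bound by STAT factors, stood in 4 of 42 (9.52%), against 8.13%, all 4 among those that were lower. ATCGAT, a core bound by ONECUT factors, stood in 0 of 42, against 0.836%. In the 7 sequences shown no match overlaps another. The windows are short, and the matches describe letters, not binding.

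The Cyp1 genes, the classical targets of AHR, did not move together. Cyp1a1, which oxidises polycyclic aromatic compounds, ran from 5.86 to 6.23 in sh scramble livers (median 6.02) and from 6.71 to 7.93 in sh Grb14 livers (median 7.15). The groups did not overlap, and the change was 1.25 (SE 0.16; limma adjusted p = 2.9e-06), from a level close to the arrays' lower quartiles. Its neighbour Cyp1a2, the enzyme that demethylates caffeine, went the other way. Cyp1a2 ran from 12.56 to 12.87 (median 12.66) in sh scramble livers and from 11.33 to 11.82 (median 11.61) in sh Grb14 livers. Every sh Grb14 mouse lay below every sh scramble mouse, with a change of −1.09 (SE 0.072; limma adjusted p = 7.81e-10). Cyp1b1, which hydroxylates oestradiol and is known mostly from tissue other than hepatocytes, ran from 6.20 to 6.56 (median 6.37) and from 6.87 to 7.26 (median 7.13), a change of 0.74 (SE 0.077). It was higher in every sh Grb14 mouse. In the same livers 6 of 8 measured markers of stellate cells and fibroblasts were higher, against 25.8% of all genes, and 1 was lower. The mean log2 level of these markers ran from 9.09 to 9.51 in sh scramble and from 9.99 to 10.36 in sh Grb14 livers. Their part in the change of Cyp1b1 was not tested.

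Cyp2a, Cyp2b, Cyp2f, Cyp2g, Cyp2s and Cyp2t genes lie near one another in 1 cluster and gave mixed results. Cyp2b9, a female-biased liver P450, rose by 1.89 (SE 0.24; limma adjusted p = 3.67e-06). Its level ran from 5.53 to 7.16 (median 6.87) in sh scramble livers and from 7.78 to 8.94 (median 8.69) in sh Grb14 livers. The sh scramble mouse at 5.53 lay more than a log2 unit below the next, and the groups did not overlap. Cyp2b10, the gene most often used to read CAR activity, fell by 0.89 (SE 0.16; limma adjusted p = 0.000107). It ran from 9.66 to 10.38 (median 10.17) and from 8.65 to 9.62 (median 9.22). The groups did not overlap, but the highest sh Grb14 mouse came close to the lowest sh scramble mouse. Cyp2b13, also female-biased, stayed below the lower quartiles in both groups and did not pass (change −0.035, SE 0.082; limma adjusted p = 0.712). Of the remaining Cyp2b genes, Cyp2b19 was lower and Cyp2b23 did not pass. With arrays centred on their medians Cyp2b13 and Cyp2b23 passed as lower (adjusted p = 0.0454 and 0.0204).

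Cyp2f2, known for activating naphthalene and, in liver, for its periportal expression, fell 2.46-fold. It ran from 13.37 to 13.49 (median 13.43) in sh scramble livers and from 11.70 to 12.65 (median 12.15) in sh Grb14 livers, a change of −1.30 (SE 0.11; limma adjusted p = 3.24e-08). The sh scramble mice lay close together, and the sh Grb14 mice spread over almost a log2 unit. Cyp2a12, a steroid hydroxylase, fell by 0.25 (SE 0.057; limma adjusted p = 0.00121), and quantile normalization brought this to −0.051 (adjusted p = 0.368). Cyp2a22, named here after its values were seen, rose by 0.76 (SE 0.14), from a range of 6.08 to 6.34 to one of 6.41 to 7.41. Its sh Grb14 mice fell apart into 4 mice above 7.00 and 2 mice at 6.41 and 6.58. Cyp2g1, an olfactory P450, Cyp2s1, an epithelial P450, and Cyp2t4 did not pass (changes 0.17, 0.14 and −0.15). All 3 passed under some alternatives. Cyp2g1 passed under quantile normalization (adjusted p = 0.0246), with array weights (0.0263) and without sh scramble 6 (0.0419). Cyp2s1 passed with no intensity trend (adjusted p = 0.0383), without dim genes (0.0481) and without sh scramble 6, sh Grb14 3 or sh Grb14 6 (0.0292 to 0.0414). Cyp2t4 passed with arrays centred on their medians (adjusted p = 0.00048) and without sh scramble 3 or 4 (0.0204 to 0.0497).

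All 10 Cyp2d genes fell, and in each the groups did not overlap. In mouse this subfamily, which in humans is the single drug enzyme CYP2D6, is a row of similar genes, so that probes can share signal between members. The largest change was that of Cyp2d13, a transcribed pseudogene in RefSeq, from 11.00 to 11.19 (median 11.05) in sh scramble livers to 8.88 to 9.14 (median 9.06) in sh Grb14 livers. Both groups were tight, and the change was −2.04 (SE 0.053; limma adjusted p = 1.32e-14), 4.12-fold lower. Next came Cyp2d40 with a change of −1.83 (SE 0.079) and, between it and Cyp2d13 in gene order, the pseudogene Cyp2d37-ps with −1.81 (SE 0.073). Cyp2d10 ran from 11.43 to 11.99 (median 11.70) and from 10.26 to 10.73 (median 10.42), 2.42-fold lower. Cyp2d9, a male-biased steroid hydroxylase, ran from 11.87 to 12.08 (median 11.90) and from 11.18 to 11.36 (median 11.29), a change of −0.64 (SE 0.043). Cyp2d26 had the smallest change of the 10, −0.29 (SE 0.029), from 13.42–13.48 to 13.07–13.22, near the top of the scale. The remaining 4 genes, Cyp2d11, Cyp2d12, Cyp2d22 and Cyp2d34, changed by −0.86 to −0.37. Of these, Cyp2d12 lay below the lower quartiles in both groups, and Cyp2d11 came down to about their level in sh Grb14 livers (mean 5.71). All 10 stayed lower and past the test under each alternative in which they were fitted.

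The 6 Cyp2j genes, whose enzymes make epoxides of arachidonic acid, were all lower too, 4 of them past the test under quantile normalization. Cyp2j5, a major form of liver and kidney, ran from 12.70 to 12.85 (median 12.74) in sh scramble livers and from 10.87 to 11.76 (median 11.23) in sh Grb14 livers, 2.84-fold lower (change −1.51, SE 0.12; limma adjusted p = 5.31e-09). Cyp2j9 fell by 1.15 (SE 0.089), from a range of 8.18 to 8.71 to one of 7.03 to 7.46. In the other 4 the changes were −0.29 to −0.17. Of these, Cyp2j11, Cyp2j12 and Cyp2j13 lay below the lower quartiles in both groups. Cyp2j12 lost its call without sh scramble 1, sh scramble 5 or sh Grb14 6 (adjusted p 0.0514 to 0.0679) and under quantile normalization (adjusted p = 0.315), which also cost Cyp2j6 its call (adjusted p = 0.181).

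Cyp2e1, Cyp2r1 and Cyp2u1, single genes of family 2 with known substrates, fell too, with changes of −1.67 to −0.94. Cyp2e1, which oxidises ethanol and paracetamol close to the central vein, ran from 13.50 to 13.58 (median 13.55) and from 12.45 to 12.73 (median 12.63), a change of −0.94 (SE 0.041; limma adjusted p = 4.57e-12). Cyp2r1, the vitamin D 25-hydroxylase, ran from 9.82 to 9.98 (median 9.88) and from 8.28 to 9.01 (median 8.78), 2.26-fold lower (change −1.18, SE 0.093). Cyp2u1, a fatty acid hydroxylase, ran from 10.30 to 10.64 (median 10.46) and from 8.51 to 8.92 (median 8.81), 3.17-fold lower (change −1.67, SE 0.071). In none of the 3 did the groups overlap. Cyp2w1, a gene of the developing gut, fell by 0.31 (SE 0.073) with overlapping groups.

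Of the 6 Cyp3a genes 4 were lower and 2 did not pass. Cyp3a11, the main drug-oxidising form of mouse liver and a PXR target, ran from 13.12 to 13.35 (median 13.29) in sh scramble livers and from 12.97 to 13.24 (median 13.12) in sh Grb14 livers. The groups overlapped, and the change of −0.16 (SE 0.052; limma adjusted p = 0.0127) turned to 0.0096 under quantile normalization (adjusted p = 0.861; range over all alternatives 0.000217 to 0.861). Cyp3a13 had the largest change of the 4, −0.90 (SE 0.076; limma adjusted p = 1.89e-08), with no overlap of the groups, and Cyp3a25 and Cyp3a57 changed by −0.34 and −0.27; these 3 are named to complete the subfamily. The female-biased Cyp3a44 (change −0.18, SE 0.079) and Cyp3a16 (change 0.090, SE 0.097) did not pass (limma adjusted p = 0.0566 and 0.418). Cyp3a44 passed as lower with arrays centred on their medians (adjusted p = 0.00156), under quantile normalization (0.00565) and without sh scramble 2 or sh Grb14 2, 3 or 6 (0.0124 to 0.0474). Cyp3a16 and Cyp3a57 lay below the lower quartiles in both groups.

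Cyp4a genes, the fatty acid omega-hydroxylases, split. Cyp4a14, a strong target of PPAR-alpha, rose 2.4-fold (change 1.26, SE 0.23; limma adjusted p = 0.000136). It ran from 10.06 to 11.91 (median 11.18) in sh scramble livers and from 12.12 to 12.66 (median 12.36) in sh Grb14 livers. The sh scramble mice were spread over almost 2 log2 units, and still none reached the lowest sh Grb14 mouse. Cyp4a10, next to it and also a PPAR-alpha target, fell. Cyp4a10 ran from 11.21 to 11.65 (median 11.55) and from 10.73 to 11.08 (median 10.92), a change of −0.60 (SE 0.073; limma adjusted p = 1.68e-06). Cyp4a31 did not pass (change −0.16, SE 0.11; limma adjusted p = 0.181), but passed as lower with arrays centred on their medians (adjusted p = 0.0153).

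Cyp4a12a, a male-biased enzyme that makes the vasoconstrictor 20-HETE from arachidonic acid, fell 2.36-fold. It ran from 12.92 to 13.38 (median 13.17) and from 11.31 to 12.44 (median 11.94), a change of −1.24 (SE 0.15; limma adjusted p = 1.99e-06). Cyp4a12b, an almost identical copy whose probe set may read both genes, changed by −1.27 (SE 0.13). Both were lowest in the same sh Grb14 mouse, replicate 4, at 11.31 and 11.37. The single gene of Cyp4b, Cyp4b1, fell by 0.51 (SE 0.052).

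The 9 Cyp4f genes showed the widest split. Cyp4f14, Cyp4f15 and Cyp4f13, of a subfamily that hydroxylates leukotrienes and vitamin E, fell. Cyp4f14 ran from 12.17 to 12.29 (median 12.23) in sh scramble livers and from 9.62 to 10.62 (median 10.23) in sh Grb14 livers, 4.18-fold lower (change −2.06, SE 0.11; limma adjusted p = 8.75e-11). Cyp4f15 ran from 11.53 to 11.67 (median 11.58) and from 9.63 to 10.21 (mean 9.94), and Cyp4f13 from 11.00 to 11.11 (median 11.06) and from 9.44 to 9.64 (median 9.58). Cyp4f15 was 3.14-fold lower (change −1.65, SE 0.077) and Cyp4f13 2.84-fold lower (SE 0.045), and more than a log2 unit separated the groups in each of the 3.

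Cyp4f18 and Cyp4f16 rose. Cyp4f18, known from neutrophils and other myeloid cells, where it inactivates leukotriene B4, ran from 6.71 to 7.35 (median 7.16) in sh scramble livers and from 9.14 to 9.68 (median 9.34) in sh Grb14 livers. This was the largest rise of the 56 genes, 2.28 (SE 0.11; limma adjusted p = 2.04e-11), 4.85-fold. Cyp4f16 ran from 7.31 to 7.95 (median 7.68) and from 9.07 to 9.34 (median 9.23), a rise of 1.53 (SE 0.093; limma adjusted p = 2.87e-10). In the same livers 6 of 7 measured neutrophil markers were higher (S100a9 by 1.31, Cxcr2 by 2.36), against 25.8% of all genes, and Mpo did not pass. The neutrophil list's mean log2 level ran from 6.18 to 6.32 in sh scramble and from 7.40 to 7.79 in sh Grb14 livers. All 8 measured markers of monocytes and recruited macrophages were higher, with mean levels of 7.79 to 8.08 and 9.63 to 10.02. Their part in the rises of Cyp4f18 and Cyp4f16 was not tested.

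The remaining Cyp4f genes changed less. Cyp4f39, which makes very long hydroxylated fatty acids of the skin barrier, rose by 0.36 (SE 0.12; limma adjusted p = 0.0157) with overlapping groups, and lost its call with arrays centred on their medians (change 0.21, adjusted p = 0.119). Cyp4f40 and Cyp4f41-ps were lower, and Cyp4f37 did not pass. Cyp4f41-ps lost its call without any 1 of 8 mice, which were sh scramble 1, 2, 5 and 6 and sh Grb14 1, 2, 3 and 6 (adjusted p 0.0556 to 0.0916). Cyp4f37 passed as lower with arrays centred on their medians (adjusted p = 0.000256). It also did with no intensity trend, with the mean of probe sets or with array weights (0.0414 to 0.0496) and without sh scramble 5, sh Grb14 4 or sh Grb14 5 (0.0218 to 0.0424). Cyp4x1, a gene known from brain, did not pass (limma adjusted p = 0.343), but passed as lower with arrays centred on their medians (change −0.21, adjusted p = 0.00389).

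**Figure D3:**
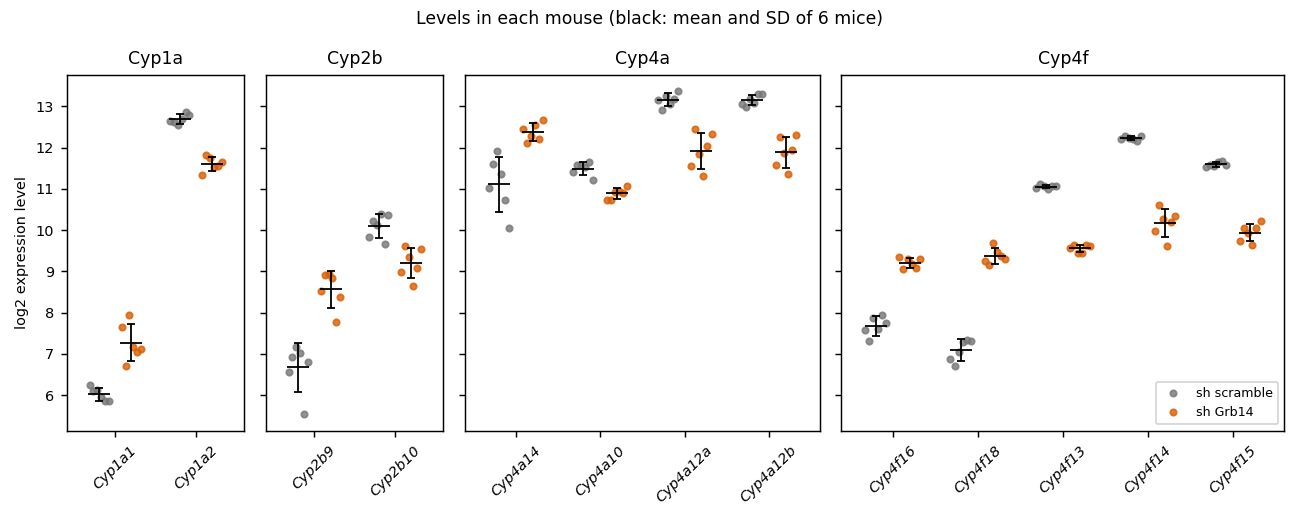
Log2 expression level (y axis) of each mouse for genes of Cyp1a, Cyp2b, Cyp4a and Cyp4f, which held genes past the test in both directions (as did Cyp2a, not drawn), sh scramble in grey and sh Grb14 in orange, with the mean and SD of 6 mice in black. In Cyp4f the orange points of Cyp4f16 and Cyp4f18 lie above the grey ones, and those of Cyp4f13, Cyp4f14 and Cyp4f15 lie more than a log2 unit below. Levels of different probe sets are not comparable with each other.

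Gene order in RefSeq (GRCm38.p6) gave 32 pairs of members that are direct neighbours, with no other protein-coding gene between them. In 18 pairs both genes were lower and in 0 both were higher. In 3 pairs the genes passed in opposite directions, which were Cyp1a1 and Cyp1a2, Cyp4a14 and Cyp4a10, and Cyp2a22 and Cyp2a12. In the other 11 pairs at least 1 gene did not pass. The pairs with both genes lower came from the Cyp2d, Cyp2j, Cyp3a, Cyp4a and Cyp4f rows and from Cyp2a12 and Cyp2f2. Neighbours are often similar in sequence, so their probe sets may share signal. With 38 of 56 members lower and 8 higher, many pairs with both lower and few with both higher arise without any tie between neighbours. Neighbouring pairs over all genes were not counted, so the 18 pairs are a description only. Some of them rest on Cyp2a12, Cyp2j6, Cyp2j12, Cyp3a11 or Cyp4f41-ps, which lost their calls under alternatives given above.

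Grouped by known regulation, the lists gave small counts, to be read beside 25.8% of all genes higher and 39.5% lower. Of 3 AHR-inducible genes 2 were higher and 1 lower. Of 2 measured genes inducible through CAR or PXR (Cyp2b10 and Cyp3a11) both were lower, the second with the exception under quantile normalization given above. Of 3 measured PPAR-alpha targets 1 was higher, 1 lower and 1 did not pass. All 3 male-biased genes (Cyp2d9, Cyp4a12a and Cyp4a12b) were lower, with a median change of −1.24. The Cyp4a12a and Cyp4a12b values may not be separate readings, since their probe sets may share signal. Of 4 measured female-biased genes 1 (Cyp2b9) was higher and 3 did not pass, of which Cyp2b13 and Cyp3a44 passed as lower with arrays centred on their medians. Listed genes read only by shared probe sets are outside these counts. The probe set of Cyp2a5 (CAR or PXR list) and Cyp2a4 (female-biased list) was higher, with a change of 0.16. That holding Cyp4a32 (PPAR-alpha list) was lower, with a change of −0.74. Those holding Cyp3a41a and Cyp3a41b (female-biased list) did not pass.

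**Figure D4:**
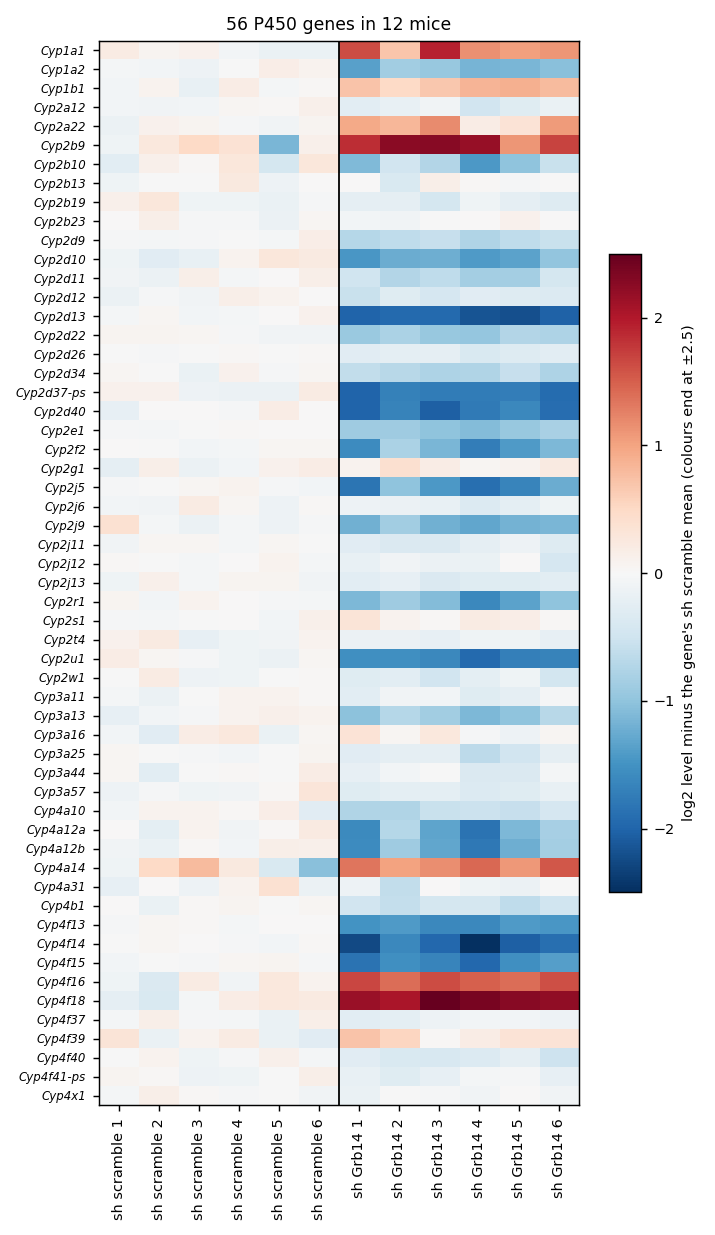
Log2 level of each of the 56 P450 genes (rows, by subfamily) in each of the 12 mice (columns), shown as the difference from that gene's mean over the 6 sh scramble mice, red above and blue below, with colours ending at ±2.5. The sh Grb14 columns are blue over the Cyp2d rows and over Cyp4f13, Cyp4f14 and Cyp4f15, and red over Cyp2b9, Cyp4a14, Cyp4f16 and Cyp4f18.

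Within the sh Grb14 group the falls differed in depth between mice. Of the 18 bright members that were lower, replicate 4 was the lowest sh Grb14 mouse in 15 and replicate 1 in 3, and replicate 6 was the highest in 10 and replicate 2 in 5. In the sh scramble group no mouse was the lowest in more than 7 of these 18 genes. The SD among sh Grb14 mice exceeded that among sh scramble mice in 14 of the 18, with median SDs of 0.172 and 0.082. Over all genes it did so in 53.4%, with median SDs of 0.109 and 0.104. Other bright genes that were lower were not counted. Among them, SDs in sh scramble and sh Grb14 mice were 0.024 and 0.133 for Apoa2 and 0.059 and 0.397 for Hal. They were 0.040 and 0.035 for Fgb and 0.066 and 0.054 for Cyb5a. Replicate 4 was also the lowest sh Grb14 mouse for Apoa2 and Hal, and replicate 5 for Cyb5a. The wider spread and this order are thus not particular to P450 genes. The 18 members share the same livers, so their order is 1 observation rather than 18.

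The partners that P450 enzymes need were lower as well. The list of redox partners and heme supply had 10 measured genes of 12, and all 10 were lower, against 39.5% of all genes. All but Ppox are among the top 10% of genes by level, where 52.4% were lower. The list's median change was −0.37, beside −0.10 for all genes. Under quantile normalization 2 of the 10, Pgrmc1 and Alad, turned. Cyb5b, an outer mitochondrial membrane cytochrome b5, fell by 1.05 (SE 0.060), and Cyb5a, the microsomal form that passes electrons to P450s, by 0.36 (SE 0.036). Cyb5r3, the reductase of cytochrome b5, fell by 0.51 (SE 0.036). Among heme synthesis genes Urod fell by 0.82 (SE 0.040), Fech by 0.48 (SE 0.057), Ppox by 0.36 (SE 0.047) and Cpox by 0.35 (SE 0.046), with no overlap of the groups. Alas1, the first and rate-limiting enzyme of heme synthesis in liver, fell by 0.37 (SE 0.12; limma adjusted p = 0.0167) with overlapping groups, and lost its call under quantile normalization (adjusted p = 0.162). Under the same scaling Pgrmc1, a heme-binding partner of P450s, turned from −0.11 to 0.094 (adjusted p = 0.0122) and Alad, the second heme synthesis enzyme, from −0.15 to 0.038 (adjusted p = 0.477).

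The transcription regulators of P450 genes moved both ways, 4 of 13 higher, 7 lower and 2 not past the test. Over all genes 25.8% were higher and 39.5% lower, and among the top 10% by level 31.5% and 52.4%. The counts of regulators are near these shares. Cebpa, a factor of the differentiated hepatocyte, had the largest change of the 13. It ran from 11.51 to 11.79 in sh scramble livers and from 9.81 to 10.08 in sh Grb14 livers, 3.28-fold lower (change −1.71, SE 0.055; limma adjusted p = 1.23e-13). The sensor genes Ppara and Nr1i3, which encodes CAR, fell by 1.06 (SE 0.048) and 1.03 (SE 0.085). Nr1i2, which encodes PXR, changed by −0.15 (SE 0.042), and Rxra, the shared partner of these receptors, by −0.55 (SE 0.062). Hnf4a and Foxa2, factors of hepatocyte identity, fell by 0.37 (SE 0.060) and 0.75 (SE 0.13). On the other side, Ahr rose by 0.58 (SE 0.091), its partner Arnt by 0.37 (SE 0.037) and its target Tiparp by 0.65 (SE 0.074). Nfe2l2, encoding NRF2, rose by 1.04 (SE 0.046). Ahrr, the AHR repressor gene, and Nr0b2, encoding SHP, did not pass (changes 0.0005 and 0.18), although Nr0b2 did without sh scramble 6 (adjusted p = 0.0357).

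Among regulators of sex-biased liver genes 4 of 6 were lower, against 39.5% of all genes, and 2 did not pass. Onecut1, encoding HNF6, ran from 9.15 to 11.58 in sh scramble livers and from 8.29 to 8.79 in sh Grb14 livers, a change of −2.42 (SE 0.30; limma adjusted p = 2.41e-06). In 5 of the 6 sh scramble mice it stood between 11.11 and 11.58, and in replicate 6 at 9.15. Ghr, the growth hormone receptor, fell by 0.92 (SE 0.036) and Stat5b, which carries its signal, by 0.40 (SE 0.057). Bcl6, a repressor in this pathway, spread from 7.63 to 10.43 among sh scramble mice and did not pass (limma adjusted p = 0.201), but did without sh scramble 1 (adjusted p = 0.0322). Stat5a did not pass (limma adjusted p = 0.207), but passed as lower with arrays centred on their medians (adjusted p = 0.000761), under quantile normalization (0.0395) and without sh scramble 3 (0.0473). Cux2, a female-biased factor, changed by −0.17 (adjusted p = 0.0379) and lost its call without any 1 of 7 mice, which were sh scramble 1, 2 and 6 and sh Grb14 1, 2, 3 and 6 (adjusted p 0.0595 to 0.0923).

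Of the hydrolases that open epoxides made by P450s, Ephx1, the microsomal enzyme for foreign compounds, rose by 0.29 (SE 0.040), while Ephx2, the soluble enzyme for fatty acid epoxides, fell by 0.69 (SE 0.037). Ephx3 did not pass (change −0.11), but passed as lower with arrays centred on their medians (adjusted p = 0.000856). Ephx4 was lower by 0.14 (adjusted p = 0.0268) and lost this call under quantile normalization (change −0.043, adjusted p = 0.432) and without sh scramble 3 or 6 or sh Grb14 1 or 3 (0.0510 to 0.0685).

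**Figure D5:**
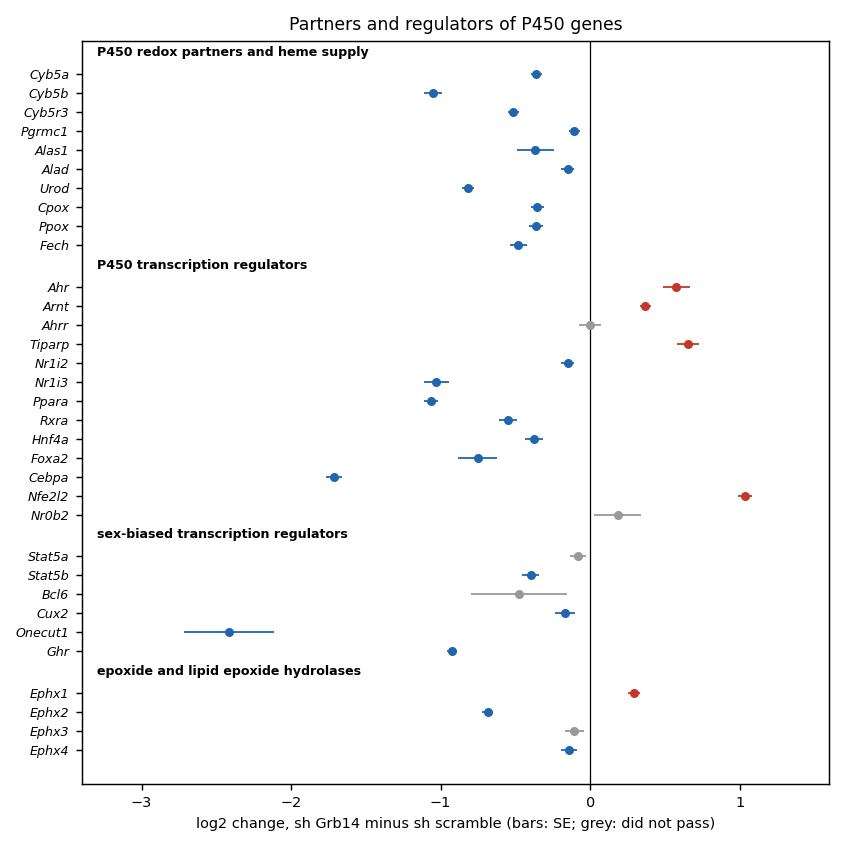
Log2 change (sh Grb14 minus sh scramble, x axis) with the SE of the fit for the 33 measured genes of 4 lists of partners and regulators, red for passed and higher, blue for passed and lower, grey for not passed. All points of the redox and heme list lie left of 0 (Pgrmc1 and Alad turn under quantile normalization), while Ahr, Arnt, Tiparp and Nfe2l2 lie right of it.

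Markers of other cell types and of liver zones, taken from lists, moved in the same livers. Their counts stand beside 25.8% of all genes higher and 39.5% lower. Of 9 measured pericentral hepatocyte genes (P450s not among them) 5 were lower, 2 higher and 2 did not pass, with mean levels of 10.39 to 10.59 in sh scramble and 9.74 to 9.95 in sh Grb14 livers. Of 7 measured periportal genes 6 were lower and 1 higher, with mean levels of 11.76 to 11.86 and 10.90 to 11.42. Of 6 measured T cell markers 5 were higher and 1 (Cd4) lower, with mean levels of 7.19 to 7.33 and 8.57 to 8.89. Of 7 Kupffer cell markers 3 were higher and 4 did not pass (mean levels 8.76 to 9.10 and 9.40 to 9.59), of 7 sinusoidal endothelial markers 2 were higher and 5 lower (9.71 to 9.89 and 9.60 to 9.73), and of 5 cholangiocyte markers 1 was higher and 4 did not pass (7.02 to 7.20 and 7.17 to 7.38). Of 9 hepatocyte secreted protein genes 6 were lower and 3 did not pass. The part of these shifts in the falls of the P450 genes was not tested.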

How the data were processed

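Per the labels' protocols, Trizol-extracted total RNA (100 ng) was converted to biotin-labelled target and hybridised to Affymetrix whole-transcript arrays. The deposited values are log2 expression values for 35556 probe sets. RMA and Partek are named in the submitters' processing notes without version or role; the chip description file and probe build are not given in the sources used here. Probe sets were named through the platform annotation (21789 with 1 symbol, 1621 with several, 12146 unnamed), and for genes with several the probe set of highest mean was used. All 56 members matched RefSeq by Entrez identifier, with 0 symbols changed. The 19938 genes were fitted with limma 3.58.1 in R 4.3.3 (lmFit, eBayes with intensity trend, all 12 arrays, no covariate, no filter), with Benjamini-Hochberg adjustment over all genes and a threshold of 0.05. For every member whose groups do not overlap, the two-sided exact permutation p was 0.00216, the smallest that 924 assignments allow. Groups that do not overlap always give this value, so it adds nothing to the lack of overlap. For members past the limma test with overlapping groups, the unadjusted exact permutation p ran from 0.00433 (Cyp2b19, Cyp2j6 and Cyp2w1) to 0.0368 (Cyp4f39). In values simulated from the arrays for 19938 genes, 95% of changes of 0.5 and 99% of changes of 1 (100 each) were recovered, with 12 false calls. There each gene was drawn independently and no other gene changed, whereas 65.3% of genes passed in the data and genes share mice and scaling. The simulated rates therefore check the fit only and need not hold for these data. The labels do not say more about the mice as replicates than that each is a separate animal, and their number limits the precision.

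Genes named with values were the brightest of each subfamily, members past the test with a log2 change of at least 1, members of the regulation lists, and members opposed to most of their subfamily; the few others are said to be so, or complete a subfamily. The members and lists were chosen with earlier results of these data known, so lists are described by counts and medians without a test. Of 35 listed partner and regulator genes 33 were measured. Alternatives were array centring, quantile normalization, no intensity trend, a filter on dim genes (mean level above 5.73), other probe set choices, array weights, and leaving out each mouse. Replicate numbers follow accession order.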

Additional observations from a re-analysis of the deposited data

Results flagged for a closer look

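In each group of 6 mice, the gap between the most extreme mouse and the next was set against the whole range of the group (Dixon's ratio at its 95% critical value), for the P450 genes, their partners and regulators, and Grb14. Of 180 such groups 14 held a mouse beyond that value, and chance alone gives about 1 in 20. Mouse sh scramble 6 stood apart in 5 genes: low for Onecut1 (9.15, others 11.11 to 11.58), Alas1 (11.21, others 11.91 to 12.26) and Fech (10.64, others 10.79 to 10.84), and high for Cyp2d9 (12.08, others 11.87 to 11.91) and Cyp3a57 (5.22, others 4.77 to 4.94). Mouse sh Grb14 2 stood apart in 3 genes: low for Cyp2b13 (4.72, others 5.07 to 5.24) and Cyp4a31 (10.75, others 11.21 to 11.38), and high for Cyp2j9 (7.46, others 7.03 to 7.18). The others were Cyp2b9 in sh scramble 5 (5.53, others 6.57 to 7.16), Cyp2b13 in sh scramble 4 (5.34, others 4.97 to 5.11), Cyp2j9 in sh scramble 1 (8.71, others 8.18 to 8.30), Cyp4b1 in sh scramble 2 (9.15, others 9.32 to 9.40), Ahr in sh scramble 3 (10.40, others 10.81 to 11.05) and Stat5a in sh Grb14 5 (9.32, others 9.21 to 9.23). Without sh scramble 6 the P450 counts were 47 past the test, 10 higher and 37 lower.

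Outside the member counts, the probe set shared by Cyp2a5 and Cyp2a4 was higher in sh Grb14 livers by 0.16 (SE 0.043; limma adjusted p = 0.00543 in a fit of all 35556 probe sets). It ran from 12.86 to 13.02 in sh scramble and from 13.02 to 13.25 in sh Grb14 livers.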

How the results depend on the processing

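Over 19 alternatives, 41 of the 56 P450 genes kept their side of the threshold in each one and 15 did not in at least 1. Of the members past the test 1 turned its direction, Cyp3a11, from −0.16 to 0.0096 under quantile normalization. Of those not past it, Cyp2b13, Cyp2b23, Cyp2s1, Cyp3a16 and Cyp4x1 had changes on both sides of 0 over the alternatives. Of the 33 partner and regulator genes 24 kept their call, 2 that had passed turned under quantile normalization (Pgrmc1 to 0.094 and Alad to 0.038), and Ahrr, not past the test, lay on both sides of 0. The number of P450 genes past the test lay between 42 and 52, lower between 33 and 45, and higher between 7 and 10. The median change of P450 genes, −0.30, moved to −0.45 with arrays centred on their medians and to −0.51 without dim genes, a filter that left 47 members, and was −0.22 under quantile normalization. Leaving out each mouse gave 44 to 47 P450 genes past the test, 36 to 39 lower, 8 to 10 higher and a median change of −0.32 to −0.28. It gave a change of −1.95 to −1.86 for Grb14. Centring moved the median change of all genes from −0.10 to −0.25 and the share of higher genes among all past the test from 39.5% to 23%, and that among the P450 genes from 17.4% to 13.5%, so members with changes near these medians depend on the scaling. Dim members, for which no detection call exists, and similar genes that share probes limit what single values show. No paired analysis was possible because the labels give the mice no shared numbers.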

Other observations

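Probe sets that carry several P450 symbols, or a P450 with another gene, give the summed signal of genes that the arrays do not separate. The probe set of Cyp4a32, Cyp4a31 and Cyp4a10 fell by 0.74 (SE 0.083), from 12.09–12.55 in sh scramble to 11.35–11.80 in sh Grb14 livers, and that of Cyp3a59, Cyp3a57 and Cyp3a25 fell by 0.39 (SE 0.092), from 11.65–11.84 to 10.96–11.57. The 2 probe sets that hold Cyp3a41b, Cyp3a44 and Cyp3a41a, 1 of them with Cyp3a11 too, changed by 0.073 (SE 0.064) and 0.11 (SE 0.067) and did not pass (limma adjusted p = 0.353 and 0.200 over all 35556 probe sets). The probe set of Cyp4v3, a fatty acid hydroxylase of the eye and liver, and Klkb1, the plasma prekallikrein gene, fell by 1.17 (SE 0.064), from 12.66–12.82 to 11.30–11.72.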
